A study of Mus musculus with 4 samples.

Results

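Zinc transporters move zinc ions across membranes, and metallothioneins are small cysteine-rich proteins that bind zinc and copper in the cytosol. The 10 genes described here were taken by symbol from the deposited expression table, 10 of 25050 genes: the importers Slc39a1, Slc39a6, Slc39a7, Slc39a9, Slc39a10 and Slc39a14, the exporters Slc30a1 and Slc30a7, and the metallothioneins Mt1 and Mt2. They were chosen by family membership with the normalised reads and log2 fold changes of the same comparison known, in which Slc39a9 stood out, so their differences between the groups are given as descriptions without a test. All 10 had enough reads to enter the fit over 15540 genes, which required a mean of at least 10 normalised reads.

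The RNA came from HT-22 cells, a continuously dividing line derived from mouse hippocampus, and was sequenced as 2 libraries of cells with wild type genotype and 2 libraries of cells that overexpress Nsmce1, all at one range of passages. The series' text describes the overexpressing cells as carrying an inducible Nsmce1 and the controls as uninduced, while the sample labels call the controls wild type. The inducing agent, the time of induction, the promoter of the transgene and whether each line is 1 clone are not given in the sources used here, and no source says whether replicate libraries stem from separate cultures, so errors measure only the spread between these libraries. Nsmce1 and whatever else separates the cell populations cannot be told apart. Wild type libraries are also called controls below.

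In the cell, proteins of the ZIP family (Slc39 genes) carry zinc into the cytosol, from outside or out of organelles, and proteins of the ZnT family (Slc30 genes) carry it the other way. The zinc sensor MTF1 binds metal response elements in promoters when cytosolic zinc rises and raises transcription of metallothioneins and of the exporter Slc30a1. In the hippocampus zinc is packed into vesicles of glutamatergic terminals by another exporter, Slc30a3, and neurons hold it in balance because an excess is toxic to them.

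Depth and identity of the libraries were as follows. The whole reads behind the values numbered between 25787452 and 44602989 a library. Nsmce1, a RING finger protein that works in chromosome repair, had 1108 and 1206 normalised reads in the controls against 17851 and 16525 with overexpression, which matched the labels. Markers of mature neurons were low: the 8 of 12 listed genes in the table summed to between 527 and 791 normalised reads a library. Most of these came from Tubb3, and the vesicular glutamate transporter Slc17a7 had at most 5.03. Of the 4 tested, 1 lay above and 3 below 0, and 1 had an unadjusted limma p under 0.05. That gene, Gap43, had 23.9 and 44.2 normalised reads in the controls against 7.0 and 0 with overexpression. Its log2 fold change was -3.57 (limma adjusted p = 0.460). The 8 mesenchymal markers, collagens among them, summed to 405949 and 361027 in the controls and to 377014 and 325561 with overexpression. These sums, most of them from collagens and Vim, overlapped, but all 7 tested markers had log2 fold changes below 0 and 2 had an unadjusted limma p under 0.05, Postn at -0.79 and Col3a1 at -0.37 (limma adjusted p = 0.546 and 0.560). Of the astrocyte markers, 3 of 5 were in the table: Gfap had at most 7.54 normalised reads, Aldh1l1 had 57.8 and 65.3 in the controls against 14.0 and 12.4 with overexpression (log2 fold change -2.14, limma adjusted p = 0.118), and Slc1a3 stood at 0.49 (limma adjusted p = 0.181). Of the 5 microglia and leukocyte markers, Ptprc, Cx3cr1 and Itgam had at most 7.54 normalised reads, and Tmem119 stood at -0.38 (limma adjusted p = 0.465). No listed marker was past the threshold, and the part of these cell type markers in the results was not tested. Slc30a3, the exporter of synaptic vesicles, had between 6.29 and 11.6 normalised reads and was too low to test.

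Slc39a9 encodes ZIP9, a zinc transporter of the Golgi and the cell surface that has also been described as a membrane androgen receptor. Slc39a9 had 1833 and 1707 normalised reads in the controls against 550.0 and 561 with overexpression. Both overexpressing libraries lay far below both wild type libraries, and the libraries of each group lay close together. In such bulk RNA, fewer cells of a type and less RNA per cell cannot be told apart. The group means were 1770 ± 89.3 and 556 ± 8.03 (SD, n = 2 in each group), 3.18-fold lower with Nsmce1 overexpression (log2 fold change -1.67, SE 0.0972). These values rest on 1458, 1621, 550 and 769 whole reads, for which the counting error is between 2.48% and 4.26%. The gap between libraries of a group was 0.10 in wild type and 0.029 in overexpressing cells on the log2 scale, against 1.67 between the groups. Of 6650 genes with a mean of at least 1000 normalised reads, 4 had a log2 fold change at or below that of Slc39a9, itself included, and of all 15540 tested genes 87 did. Since the gene stood out in this same comparison beforehand, nothing is read from its rank.

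Of the 10 genes, 1 was past the limma threshold (Benjamini-Hochberg adjusted p under 0.05), Slc39a9 on the lower side, beside 0.193% of all genes tested in either direction, 0.0901% lower and 0.103% higher. The earlier call on this contrast drew attention to the gene, so nothing is read from that count. Among the alternatives, the call was lost in limma without a mean-variance trend and without either wild type library, while the log2 fold change stayed between -1.72 and -1.62 in all 17 settings.

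The first bases of Slc39a9 overlap those of Erh, a small conserved protein of RNA processing, which is transcribed from the opposite strand. The overlap spans 459 bases in the GENCODE M21 annotation. Without strand information, whose use is not stated, reads there could belong to either gene. Erh had 3403 and 3886 normalised reads in the controls against 3154 and 4045 with overexpression (log2 fold change -0.03, SE 0.137, limma adjusted p = 0.981). The wild type values of Erh lay between its overexpressing values, unlike those of Slc39a9. The other annotated neighbours with values, Galnt16, Gm47852, Gm47879, Gm47874 and Plekhd1, stood at or below 10.2 normalised reads in every library. The promoter window of Slc39a9 (chr12:80643965-80644264 in GRCm38.p6, plus strand, 250 bases before to 50 bases after the RefSeq start) is shown because it lies with all of its 300 bases inside the annotated span of Erh, in the region where both genes start. It holds no metal response element core and therefore no capitals. GENCODE M21 places the first base of Slc39a9 at 80643883, before this window, so the window holds no bases ahead of that start.
Slc39a9: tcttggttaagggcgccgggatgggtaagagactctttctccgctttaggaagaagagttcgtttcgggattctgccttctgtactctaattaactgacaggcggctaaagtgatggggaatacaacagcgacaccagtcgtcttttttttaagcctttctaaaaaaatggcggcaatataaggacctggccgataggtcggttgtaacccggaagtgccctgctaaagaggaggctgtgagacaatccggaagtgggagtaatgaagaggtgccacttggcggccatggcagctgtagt

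The genes whose profile was most like that of Slc39a9 were Krcc1, Pld4 and Ctdsp2. Likeness was the root mean square difference of centred log2 values over the 4 libraries, among genes with a mean of at least 100 normalised reads. Krcc1 differed from Slc39a9 by 0.0708, with 1760 and 1788 normalised reads in the controls against 599 and 555 with overexpression. Pld4, a nuclease of the phospholipase D family, differed by 0.0918 and went from 215 and 190 to 61 and 54.7. Ctdsp2, a small phosphatase of RNA polymerase II, differed by 0.0929 and went from 10305 and 8504 to 3274 and 3040. All 3 had both overexpressing libraries below both wild type libraries, which follows from their being picked for likeness to Slc39a9.

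**Figure D1:**
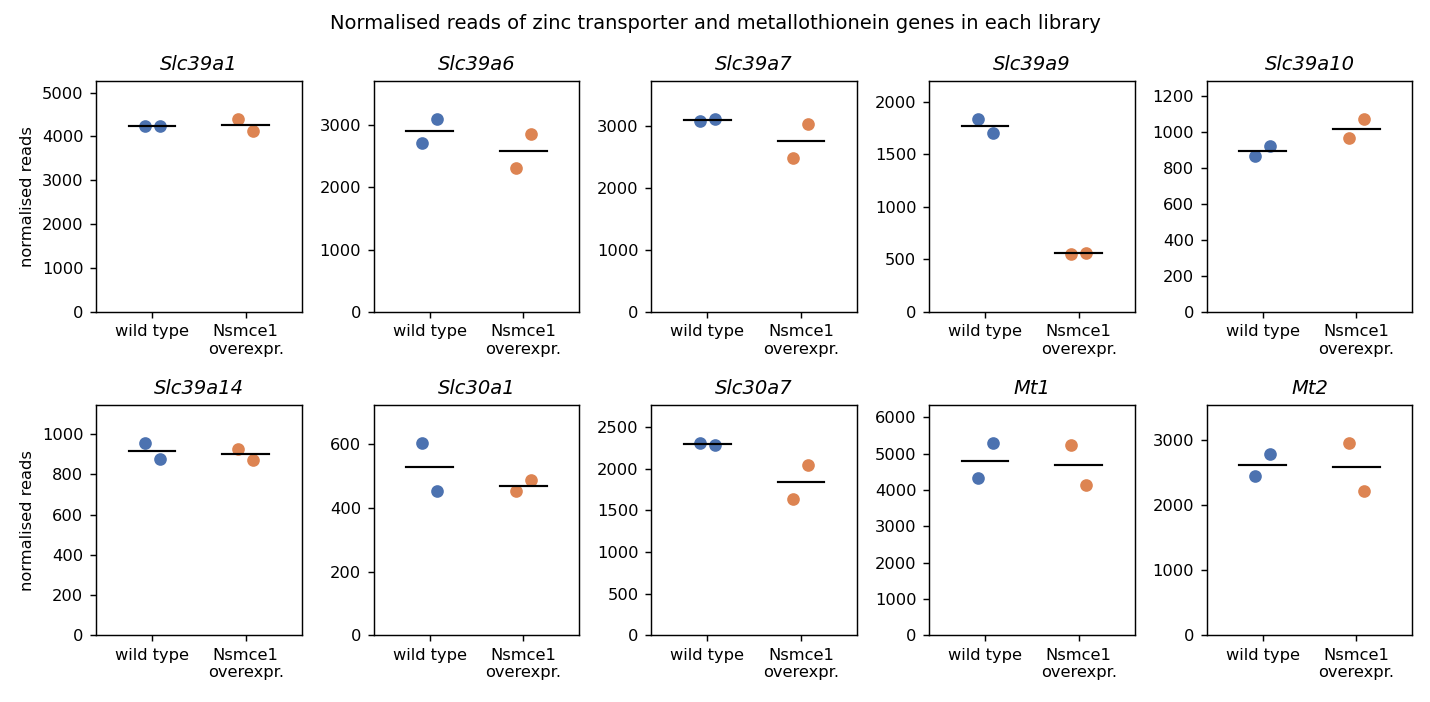
Normalised reads (vertical axes, each from 0) of the 10 genes in wild type and Nsmce1 overexpressing libraries. Points are the 2 libraries of a group and bars their mean; Slc39a9 stands at 1833 and 1707 against 550.0 and 561, while Mt1 and Mt2 spread within both groups.

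Slc39a1 encodes ZIP1, a widely expressed zinc importer of the plasma membrane. It had 4238 and 4230 normalised reads in the controls against 4385 and 4113 with overexpression, with a log2 fold change of 0.004 (SE 0.0764). The wild type values lay between the overexpressing ones. A pseudogene copy, Slc39a1-ps, was listed with between 78 and 94.3 normalised reads a library, and reads of such a copy can be split with the gene.

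Slc39a6 and Slc39a10 encode ZIP6 and ZIP10, related importers that can form a joint channel. Slc39a6 had 2719 and 3095 normalised reads in the controls against 2314 and 2868 with overexpression (log2 fold change -0.17, SE 0.128). The groups overlapped, and the log2 fold change went to -0.016 without overexpression replicate 1 and to -0.33 without replicate 2 of that group. Elp2, a subunit of the elongator complex that overlaps Slc39a6 by 952 bases on the opposite strand, had 3168 and 3535 against 2936 and 3143. Slc39a10 had 864 and 923 normalised reads in the controls against 967 and 1069 with overexpression, a log2 fold change of 0.19 (SE 0.105) that went to 0.12 without overexpression replicate 2 and to 0.26 without replicate 1 of that group. Both overexpressing libraries lay above both wild type libraries for Slc39a10, which made it the 1 member wholly higher, and the ZIP6 gene stood on the other side of 0.

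Slc39a14 encodes ZIP14, which carries manganese and free iron as well as zinc and is known as an acute phase gene of the liver. It had 954 and 878 normalised reads in the controls against 928 and 872 with overexpression, with a log2 fold change of -0.03 (SE 0.104) and overlapping groups.

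Slc39a7 encodes ZIP7, which releases zinc from the endoplasmic reticulum into the cytosol. It had 3077 and 3102 normalised reads in the controls against 2476 and 3027 with overexpression (log2 fold change -0.17, SE 0.112). The overexpressing values were lower, but overexpression replicate 2 stood close to wild type, and without replicate 1 of that group the log2 fold change was -0.029. Gm20427, a transcript on the same strand that covers 3312 bases of Slc39a7, had 553 and 563 normalised reads in the controls against 368 and 277 with overexpression (log2 fold change -0.80, SE 0.165, limma adjusted p = 0.238). Reads in the shared bases can have been assigned to either gene, which leaves both values uncertain.

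Slc30a1 encodes ZnT1, the main zinc exporter of the plasma membrane. It had 604 and 454 normalised reads in the controls against 452 and 488 with overexpression. Wild type replicate 1 stood above the other libraries: the log2 fold change was -0.16 (SE 0.165) and went to 0.050 without that library and to -0.36 without wild type replicate 2. Slc30a7 encodes ZnT7, which loads zinc into the Golgi, where enzymes such as alkaline phosphatase take it up. It had 2304 and 2282 normalised reads in the controls against 1633 and 2040 with overexpression, 1.26-fold lower (log2 fold change -0.33, SE 0.121). Both overexpressing libraries lay below both wild type libraries, with a wide gap between them: leaving out overexpression replicate 1 gave a log2 fold change of -0.17, and leaving out replicate 2 of that group gave -0.49.

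Mt1 and Mt2 encode the metallothioneins of most tissues, which lie next to each other on chromosome 8 and are standard readouts of cytosolic zinc and of glucocorticoids. Mt1 had 4322 and 5285 normalised reads in the controls against 5223 and 4128 with overexpression, with a log2 fold change of -0.04 (SE 0.146). Mt2 had 2442 and 2780 in the controls against 2944 and 2216 with overexpression, with a log2 fold change of -0.03 (SE 0.150). Wild type replicate 2 and overexpression replicate 1 were the high libraries for both genes, so that the groups overlapped and each group held a high and a low library. Without overexpression replicate 1 the log2 fold changes were -0.21 for Mt1 and -0.23 for Mt2, and without overexpression replicate 2 they were 0.13 and 0.18. The log2 gap between libraries was 0.29 in wild type and 0.34 in overexpressing cells for Mt1, and 0.19 and 0.41 for Mt2. The ratio of Mt1 to Mt2 in normalised reads stayed between 1.77 and 1.90 in the 4 libraries. Counting error was at most 2.27% for either gene, below these gaps.

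**Figure D2:**
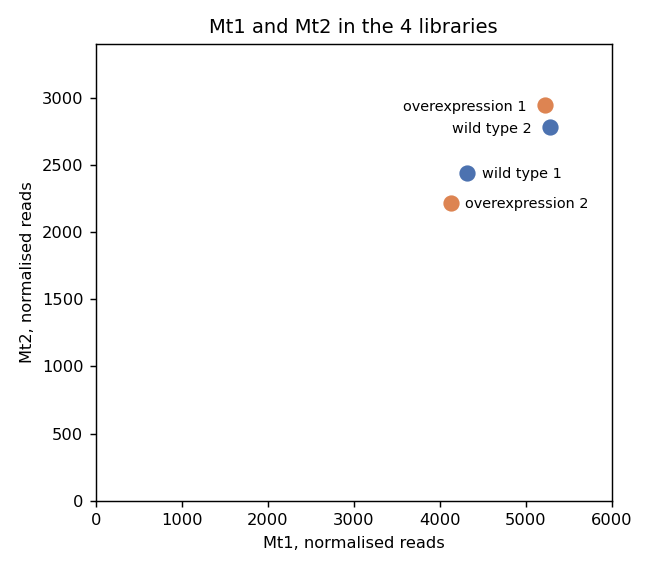
Normalised reads of Mt2 (vertical axis) against Mt1 (horizontal axis), 1 point per library, both axes from 0. The high libraries, at 5285 and 5223 Mt1 reads, come from different groups, as do the low ones at 4322 and 4128, and Mt2 follows the same split.

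The 3 profiles most like Mt1 were those of Tmem158, Cops2 and S100a3, with root mean square differences of 0.0095, 0.0187 and 0.0249. Mt2 stood at rank 23 for Mt1, with a difference of 0.0445. For Mt2 the closest were the sterol enzyme gene Lss at 0.0119, Gm12543 at 0.0180 and the histone gene Hist1h1c at 0.0226, and Mt1 stood at rank 27. Lss had 3713 and 4269 normalised reads in the controls against 4558 and 3361 with overexpression, the same high and low libraries as Mt2. With 4 libraries such rankings describe these libraries and do not separate genes that share a control.

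Promoter windows were matched in RefSeq (GRCm38.p6) for 8 of the 10 genes, all but Slc39a6 and Slc39a14, with a second start for Slc39a10. They were searched on both strands for the metal response element core, the 7 letters TGCACNC or TGCGCNC, where N is any base. These spellings were the only motifs searched and their matches did not overlap one another. Of 32851 promoter windows of 300 bases, 25.7% held at least 1 match, 7.11% at least 2 and 1.97% at least 3. Mt1 held 3 matches, Mt2 4 and Slc30a1 2, and the windows of Slc39a1, Slc39a7, Slc39a9, Slc39a10 and Slc30a7 held none. A match is a description of these letters and not a bound site, and other starts of a gene have windows of their own. The windows of Mt1 (chr8:94178839-94179138, plus strand), Mt2 (chr8:94172368-94172667, plus strand) and Slc30a1 (chr1:191906531-191906830, plus strand) are shown because these are the genes with matches, with the matches on either strand in capitals.
Mt1: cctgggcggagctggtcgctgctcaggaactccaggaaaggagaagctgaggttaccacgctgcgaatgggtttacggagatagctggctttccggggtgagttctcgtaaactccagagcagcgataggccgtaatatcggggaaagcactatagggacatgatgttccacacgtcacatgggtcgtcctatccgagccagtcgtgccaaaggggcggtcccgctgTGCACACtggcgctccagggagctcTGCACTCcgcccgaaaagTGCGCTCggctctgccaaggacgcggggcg
Mt2: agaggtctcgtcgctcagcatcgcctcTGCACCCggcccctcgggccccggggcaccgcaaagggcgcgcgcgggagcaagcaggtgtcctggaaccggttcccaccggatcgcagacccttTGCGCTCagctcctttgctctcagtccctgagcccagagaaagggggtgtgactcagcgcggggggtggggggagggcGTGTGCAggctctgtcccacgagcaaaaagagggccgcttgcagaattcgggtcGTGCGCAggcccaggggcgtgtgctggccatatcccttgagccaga
Slc30a1: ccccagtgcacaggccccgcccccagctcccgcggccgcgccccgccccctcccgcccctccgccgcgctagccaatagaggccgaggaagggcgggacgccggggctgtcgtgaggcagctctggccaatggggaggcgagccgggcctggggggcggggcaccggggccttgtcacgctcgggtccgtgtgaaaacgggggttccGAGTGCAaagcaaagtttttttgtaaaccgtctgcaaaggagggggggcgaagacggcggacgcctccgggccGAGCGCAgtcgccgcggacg

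All 3 matches of Mt1 lay on the gene's strand, at -23, 3 and 21 from the RefSeq start (position of the leftmost base). Those of Mt2 began at -223 and -128 on the gene's strand and at -50 and 5 on the other strand. GENCODE M21 places the first base of Mt2 at 94172664, near the end of its window and after all of its matches. Positions relative to the start therefore depend on the annotation used. Both matches of Slc30a1, at -43 and 31, were on the other strand and read GAGTGCA and GAGCGCA in the sequence shown. The 3 genes with matches had log2 fold changes of -0.04, -0.03 and -0.16, and their groups overlapped. Mtf1 itself, whose protein reads this element, had 1727 and 1429 normalised reads in the controls against 1658 and 1599 with overexpression (log2 fold change 0.05, SE 0.115, limma adjusted p = 0.938).

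**Figure D3:**
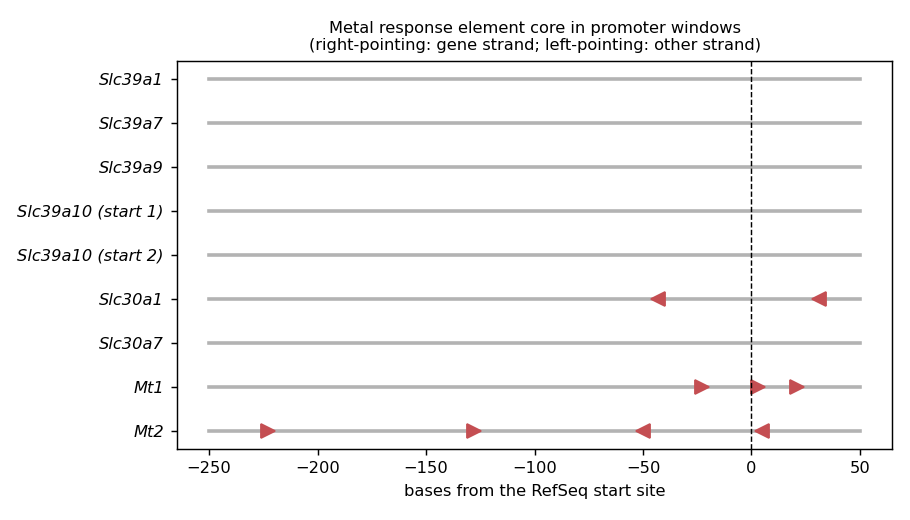
Matches to the metal response element core in the promoter windows of 8 genes (9 windows), by distance in bases from the RefSeq start (horizontal axis). Right-pointing marks are on the gene's strand and left-pointing marks on the other; Mt1 has 3, Mt2 4 and Slc30a1 2.

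Per length, as normalised reads per kb of annotated exon, the order in wild type was Mt2 at 4441, Mt1 at 3855, Slc39a1 at 1791, Slc39a7 at 1196, Slc39a6 at 714, Slc30a7 at 206, Slc39a9 at 174, Slc39a10 at 147, Slc30a1 at 101 and Slc39a14 at 86.9. Mt1 and Mt2 overlapped between libraries, as did Slc30a1 and Slc39a14, and every other pair of neighbours was apart in both wild type libraries. The order of the lower genes depends on the length used: per kb of the longest transcript Slc39a9 stood at 326, above Slc30a7 at 254 and Slc39a14 at 179. In overexpressing cells Slc39a9 had 54.7 normalised reads per kb of exon, the lowest of the 10 genes, against 85.3 for Slc39a14, but 102 per kb of the longest transcript, above Slc30a1 at 89.7.

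Among the 13 ZIP genes in the table, Slc39a1, Slc39a7 and Slc39a6 made up most of the reads per kb in every library. The share of Slc39a9 was 3.60% and 3.26% in the controls against 1.16% and 1.12% with overexpression. The shares of Slc39a1 were 35.8% and 34.7% against 39.8% and 35.3%, and those of Slc39a14 were 1.81% and 1.61% against 1.89% and 1.68%. The family summed to 5011 and 5161 normalised reads per kb in wild type and to 4663 and 4927 in overexpressing libraries, and without Slc39a9 to 4830 and 4993 against 4609 and 4871. Among the 8 ZnT genes in the table, Slc30a4 took between 42.3% and 44.8% of the reads per kb, and Slc30a7 took 10.7% and 11.1% in the controls against 7.64% and 9.70% with overexpression.

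**Figure D4:**
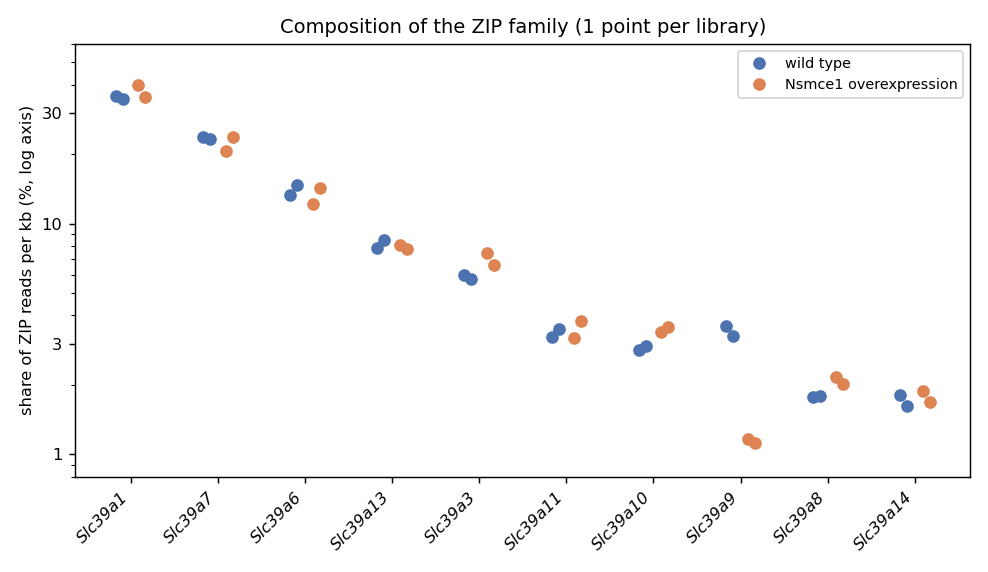
Share of the reads per kb of the ZIP family (vertical axis, percent on a log scale) for the 10 most abundant ZIP genes, 1 point per library. Slc39a9 goes from 3.60% and 3.26% in the controls to 1.16% and 1.12% with overexpression.

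Over the 10 genes, 2 log2 fold changes lay above 0 and 8 below, with a median of -0.10, beside 0.01 over all tested genes, of which 48.7% lay below 0. Groups did not overlap for 4 members, Slc39a7, Slc39a9 and Slc30a7 lower and Slc39a10 higher, beside 39.1% of all tested genes (18.3% lower and 20.8% higher). For 3 members, Slc39a9, Slc30a7 and Slc39a10, the group difference was wider than the gap between libraries in both groups, beside 26.1% of all tested genes. Since the members were chosen on this contrast, nothing is read from these counts. Besides Slc39a9, the log2 fold changes ran from -0.33 to 0.19, with standard errors between 0.0764 and 0.165.

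**Figure D5:**
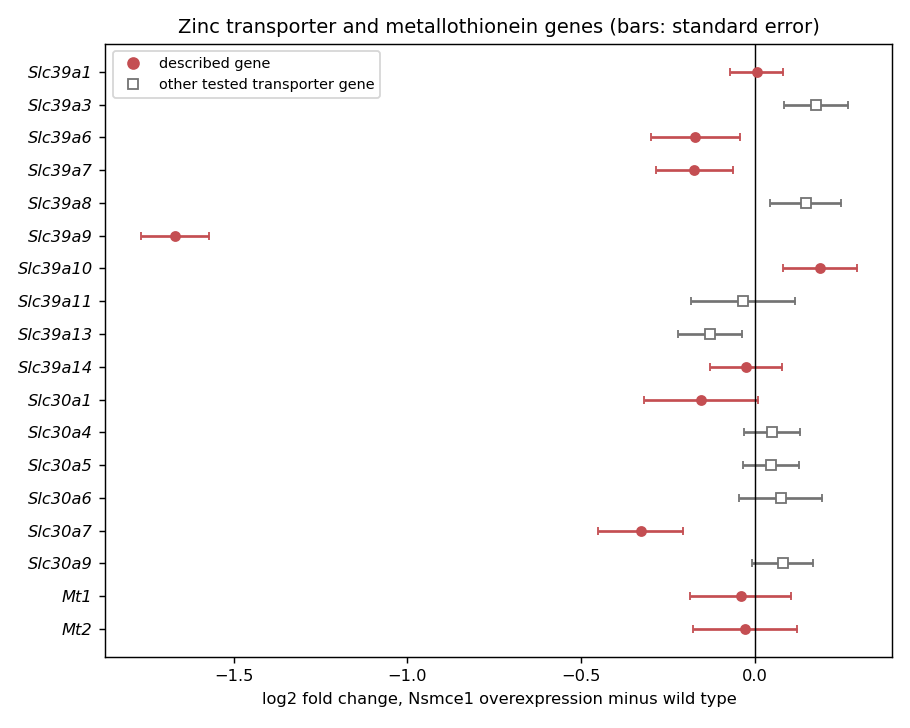
Log2 fold change (horizontal axis, Nsmce1 overexpression minus wild type) with its limma standard error (bars) for the 10 genes (filled) and the 8 other zinc transporter genes that could be tested (open). Slc39a9 stands at -1.67, and the remaining genes lie between -0.33 and 0.19.

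The remaining zinc transporter genes were read from the same fit. Of the 8 other ZIP genes 7 were in the table and 4 could be tested, of which 2 lay above and 2 below 0 and 0 were past the threshold (limma, adjusted over all genes). Slc39a3, an importer related to Slc39a1, had 1207 and 1190 normalised reads in the controls against 1400 and 1307 with overexpression (log2 fold change 0.17, SE 0.0917, adjusted p = 0.704). It lies on chromosome 10, where the median gene stood at 0.14, and it stood at 0.034 once chromosome medians were removed. Slc39a8, which carries zinc, manganese and cadmium like Slc39a14, stood at 0.15 (limma adjusted p = 0.758), and Slc39a13, of the Golgi, at -0.13 (limma adjusted p = 0.768). Slc39a13 went to -0.21 without wild type replicate 1 and to -0.049 without wild type replicate 2. Of the other ZnT genes, 4 could be tested and all 4 lay above 0, with a median of 0.06 and 0 past the threshold. These were Slc30a4 at 0.05, Slc30a5 at 0.05, Slc30a6 at 0.07 and Slc30a9 at 0.08, with limma adjusted p-values between 0.850 and 0.919. Slc30a5 and Slc30a6 encode the partner proteins that load the same enzymes as ZnT7. Mt3, Mt4, Slc39a12, Slc30a8 and Slc30a10 were not found by symbol among the genes used here, so they were not analysed.

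The lists of other genes held 57 tested genes: the transporters above, genes of zinc, copper and iron handling, genes linked to MTF1, zinc enzymes, and 12 genes of the glucocorticoid and interleukin 6 responses. Of these, 0 were past the threshold in limma and 0 in limma voom, and 3 were at an unadjusted limma p under 0.05, which is 5.26% beside 7.92% of all genes. Of the 57, 33 lay above and 24 below 0, with a median of 0.05. The lists were written with earlier results of these data known. Zinc sensing and other zinc routes had 5 tested genes, 4 above 0, with Cbwd1, a metallochaperone, at 0.24 (limma adjusted p = 0.660) and the lysosomal channel Mcoln1 at 0.07. The 4 genes linked to MTF1 divided into 1 above and 3 below 0. Among them Ndrg1, a stress response gene, had 12024 normalised reads in overexpression replicate 1 against 6422 to 7781 in the other libraries. The 3 genes below 0 were Pgf at -0.24, Csrp1 at -0.09 and Gclc at -0.09.

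Copper handling, which shares metallothionein with zinc, had 10 tested genes, 4 above and 6 below 0, with a median of -0.05. Atox1, the copper chaperone of the secretory route, had 1369 and 1479 normalised reads in the controls against 1121 and 1235 with overexpression (log2 fold change -0.27, SE 0.101, limma adjusted p = 0.563). The copper importer Slc31a1 stood at -0.08, the copper pump Atp7a at 0.23 and Sod1, the copper and zinc superoxide dismutase, at -0.09. Atp7a went to 0.44 without wild type replicate 1 and to 0.018 without wild type replicate 2. Atp7b stood at -0.60 (limma adjusted p = 0.807), with at most 13.8 normalised reads a library. Sod1 lies on chromosome 16 and stood at -0.26 once chromosome medians were removed (limma adjusted p = 0.532). Iron handling had 12 tested genes, 6 on each side of 0. Tfrc, the transferrin receptor, had 4629 and 4778 against 5482 and 6005 (log2 fold change 0.29, SE 0.0808, limma adjusted p = 0.441). Tfrc lies on chromosome 16, where the median gene stood at 0.17, and it stood at 0.12 once chromosome medians were removed. The ferritin chains Fth1 and Ftl1 stood at 0.06 and -0.04.

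Zinc enzymes of the secretory route, which receive zinc through the exporters of the Golgi, had 6 tested genes, 5 above and 1 below 0, with a median of 0.14 and 0 past the threshold. Mmp9, a matrix metalloproteinase, had 75.4 and 68.5 normalised reads in the controls against 159 and 137 with overexpression (log2 fold change 1.03, SE 0.206, limma adjusted p = 0.227). The abundant Mmp14 and Mmp2 stood at 0.09 and 0.03, and alkaline phosphatase Alpl had at most 3.16 normalised reads. Glucocorticoid-responsive genes, which are relevant to Mt1 and Mt2, had 3 above and 3 below 0 (median 0.005), with Fkbp5 at -0.12 and Sgk1, on chromosome 10, at 0.19 (0.046 once chromosome medians were removed). Dusp1 and Per1, of the same list, stood at -0.25 and 0.11. Genes of interleukin 6 signalling and the acute phase, the response named for Slc39a14 above, had 4 above and 2 below 0. The acute phase genes Saa3 and Lcn2 stood at 0.72 and 0.40 (limma adjusted p = 0.721 and 0.710). Saa3 had 72.9 and 33.7 normalised reads in the controls against 94.0 and 72.3 with overexpression. Lcn2 had 89.3 and 84.3 against 104 and 126. Stat3 stood at 0.17 and the receptor chain Il6st at -0.28. Il6st had 28893 normalised reads in wild type replicate 1, the library in which Slc30a1 was also highest, and 15859 to 17740 in the others.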

How the data were processed

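RNA-seq of 4 HT-22 libraries was used. The authors deposited 1 table of log2 values per gene, namely log2 of (normalised reads + 1), as worked out from the values: undoing the log2 gave whole multiples of 1 step for 100% of values in each library, within 0.001 read. Per the submitters' processing notes, HISAT, Cufflinks and mm9 were used, without versions. Read assignment and use of strand: not given in the sources used here. GENCODE M21 and RefSeq tables (GRCm38) gave chromosomes, exon lengths, overlaps and promoters by gene identifier or symbol. That build differs from mm9, and promoter positions are those of GRCm38.p6.

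limma 3.58.1 (R 4.3.3), with a mean-variance trend and group as the only term, was fitted to the log2 values of 15540 genes with a mean of at least 10 normalised reads. P-values are two-sided and Benjamini-Hochberg adjusted over all genes, and 0.05 was the threshold. Because 1 was added before the log2, fold changes of low genes are understated. Figures used Python 3.11.15.

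Members and gene lists were chosen with earlier results of these data known. Named genes were the members, Nsmce1, neighbours and overlaps of members, the 3 genes nearest in profile to Slc39a9, Mt1 and Mt2, and genes from the lists: those called and up to 4 with the smallest p. Some further list genes (Fth1, Ftl1, Mmp2, Slc31a1, Alpl, Slc30a3 and the cell type markers) were named after their values were seen. Alternatives were pseudocounts, filters, scalings, variance models, chromosome medians, the replicate number as a block and each library left out; voom on recovered reads was added after seeing the data. Protein sequences were not used here.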

Additional observations from a re-analysis of the deposited data

How the results depend on the processing

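With 2 libraries a group, calls rest on limma's pooled variance and each left-out library shifts them. The number of genes past the threshold was 30, and it was 16 without a filter, 18 with quantile normalization, 9 in limma without a trend, 72 with robust variances and 11 at an adjusted p under 0.01. It ran from 2 to 75 when 1 library was left out, lowest without wild type replicate 1 and highest without overexpression replicate 2. With the replicate block it was 60. Deviations of same-numbered libraries were uncorrelated across all tested genes (r = 0.0068). That cannot show whether such libraries share a culture or preparation, because a shared effect on some genes could be missed. The block changed no call among the members, Nsmce1 and the list genes with the smallest p, for which it was compared. None of the 57 tested list genes was past the threshold in the 17 settings, including voom. Slc39a9 missed it in limma without a trend (adjusted p = 0.103), without wild type replicate 1 (adjusted p = 0.132) and without wild type replicate 2 (adjusted p = 0.0834), and its adjusted p ran from 0.000706 to 0.0104 in the others. Among the list genes with the smallest p, none called, leaving out 1 library turned the sign of the log2 fold change for 11, whose ranges were -0.20 to 0.13 for Slc39a11, -0.0053 to 0.16 for Slc30a9, -0.00076 to 0.15 for Slc30a6, -0.0058 to 0.10 for Slc30a4, -0.084 to 0.19 for Mtf1, -0.23 to 0.13 for Trpm7, -0.22 to 0.68 for Ndrg1, -0.20 to 0.034 for Gclc, -0.018 to 0.37 for Enpp3, -0.51 to 0.0059 for Dusp1 and -0.71 to 0.15 for Il6st. Without a change of sign, the ranges included 1.25 to 4.31 for Heph, -0.44 to -0.034 for Pgf and 0.018 to 0.44 for Atp7a. The ranges were -0.14 to -0.038 for Sod1, -0.20 to -0.054 for Fkbp5, 0.072 to 0.30 for Sgk1 and 0.021 to 0.070 for Slc30a5. The cause was not tested. The members Slc39a1, Slc39a14, Slc30a1, Mt1 and Mt2 also stood on both sides of 0 across settings.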
